A study of Mus musculus with 8 samples.

Results

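Transcripts of 10 macrophage genes (Chil3, Fcgr1, Adgre1, Cd68, Csf1r, Mrc1, Cd163, Lyz1, Lyz2 and Arg1) were followed in RNA sequencing of mouse skin. They were taken by gene symbol from a deposited table of 24612 genes, and each symbol matched 1 row. Its columns are 2 control libraries, from animals injected with phosphate-buffered saline (PBS), 3 bleomycin libraries and 3 celastrol libraries. All animals were male C57BL/6 J mice, bought at 4 weeks of age and treated from 6 weeks of age, and the labels give 21 days for every group. PBS mice received 0.1 mL of PBS and bleomycin mice 0.1 units of bleomycin, both under the skin. Celastrol was given into the peritoneum each day, at either 1 or 2 mg/kg. The dose of a given library, and whether these animals had bleomycin as well, are not stated in the labels. RNA came from skin homogenate, so every value is a mixture over all cell types of the skin, in which fewer cells of a type and less RNA per cell cannot be told apart. The labels do not state that each library is a separate animal, so the p-values measure the spread between these libraries only.

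Skin holds resident macrophages, and monocytes that enter it after injury mature into macrophages as well. Bleomycin, which damages DNA, is injected into mouse skin as a model of the fibrosis of systemic sclerosis, and macrophages in such tissue are known to take up debris and to release factors that act on fibroblasts. Celastrol is a plant triterpenoid that the series title names for an antifibrotic effect. Cd68, a glycoprotein of late endosomes and lysosomes, Adgre1, the adhesion receptor F4/80, and Csf1r, the receptor for the growth factors CSF1 and IL-34, are used to identify macrophages. Mrc1, the mannose receptor, and Cd163, the receptor for haptoglobin bound to haemoglobin, mark resident and scavenging macrophages. Chil3, a secreted chitinase-like protein also called Ym1, and Arg1, an arginase, are classical readouts of interleukin-4 signalling in mouse macrophages, while Fcgr1, the high-affinity receptor for IgG, is induced by interferon. Lyz2 is the lysozyme of mouse myeloid cells and Lyz1 is its paralog, best known from the Paneth cells of the intestine.

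Relative to PBS skin, Chil3 and Fcgr1 rose in both the bleomycin and the celastrol libraries, and Lyz1 fell in the celastrol libraries. The remaining genes did not pass the test in any comparison. Values are the deposited normalized values, which are linear and scaled between libraries but not by gene length. Changes are differences of mean log2(value + 1) with their standard error, which understate the change of low values, and a gene passed at a Benjamini-Hochberg adjusted p under 0.05 over all 23185 genes tested with limma. All 10 genes passed the filter on low values. In bleomycin against PBS, 2 of the 10 were called higher and 0 lower, while 0.453% of all genes tested were called higher and 0.224% lower. Libraries of those groups did not overlap in 5 genes that were higher and 2 that were lower, against 12.0% and 11.6% of all genes. In celastrol against PBS, 2 were called higher and 1 lower, beside 0.824% and 0.543% of all genes, and the libraries did not overlap in 4 higher and 1 lower, beside 13.2% and 13.7%. An unadjusted p under 0.05 was reached by 5 of the 10 in each comparison with PBS, beside 1582 of all 23185 genes tested in bleomycin and 2791 in celastrol. In celastrol against bleomycin, limma called 0 of the 10 in either direction, as it did 0% of all genes higher and 0% lower. There 1 of the 10 genes, and 898 of all genes, had an unadjusted p under 0.05. The groups were separate in 1 gene, Lyz1, which was lower in celastrol, and in 4.13% of all genes that were higher and 4.59% that were lower. The median change of the 10 genes was 0.64 in bleomycin against PBS, 0.50 in celastrol against PBS and -0.18 in celastrol against bleomycin, where the medians of all genes were -0.00072, -0.07 and -0.04 respectively. Bleomycin and celastrol were each compared with the same 2 PBS libraries, so these comparisons are not independent of each other.

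**Figure D1:**
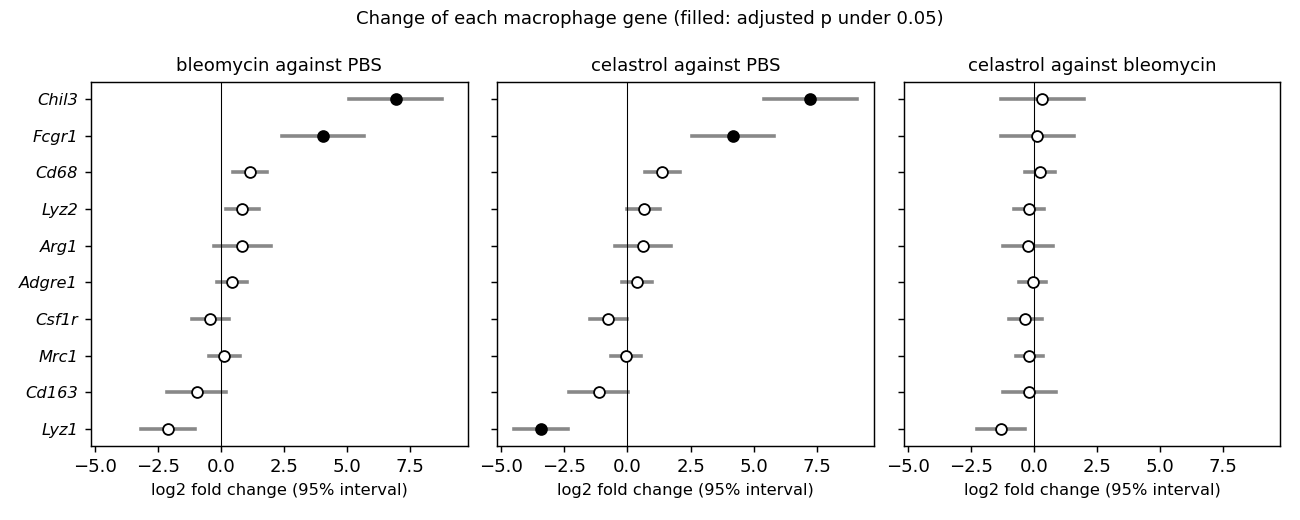
Change of each of the 10 genes on the log2 scale in each comparison, with its 95% interval from the limma fit; filled points passed the test. Chil3 (6.92 and 7.26) and Fcgr1 (4.05 and 4.18) lie far to the right in both comparisons with PBS, Lyz1 lies to the left (-2.11 and -3.42), and in celastrol against bleomycin the interval of Lyz1 is the 1 that does not cross 0.

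The count of calls depended on single libraries. In bleomycin against PBS it was 1 in place of 2 without PBS 3, without Bleomycin 3 or without any 1 of the celastrol libraries, which share the estimate of the spread, and 0 without Bleomycin 4. It was 0 in both comparisons with PBS when the 3 shallowest libraries, Bleomycin 3, Celastrol 2 and Celastrol 3, were left out together. Estimated depth was 14900000 to 18500000 reads in those libraries and 21700000 to 37100000 reads in the rest, and normalized values summed to between 22900000 and 26400000 per library. Celastrol 2 stood apart on the first principal component, which held 32.7% of the variance, at 237.5 against -57.3 to -3.63 for the rest.

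The promoters of Chil3 and Fcgr1 are shown because both transcripts rose together in both comparisons. Each run is the 250 bases before the RefSeq start (GRCm38.p6), on the minus strand, read 5′ to 3′. That of Chil3 is chr3:106167565-106167814 and that of Fcgr1 chr3:96293970-96294219. Capitals mark matches to TTCNNNGAA, the palindromic motif bound by STAT factors, and, in Fcgr1, also a match on the opposite strand to GAGGAA, the core of the motif of the myeloid factor PU.1.
Chil3: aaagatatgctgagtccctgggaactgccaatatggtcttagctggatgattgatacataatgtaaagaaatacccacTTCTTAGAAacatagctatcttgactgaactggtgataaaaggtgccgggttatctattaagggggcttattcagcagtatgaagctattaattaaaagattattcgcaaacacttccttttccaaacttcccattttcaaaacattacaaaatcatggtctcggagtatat
Fcgr1: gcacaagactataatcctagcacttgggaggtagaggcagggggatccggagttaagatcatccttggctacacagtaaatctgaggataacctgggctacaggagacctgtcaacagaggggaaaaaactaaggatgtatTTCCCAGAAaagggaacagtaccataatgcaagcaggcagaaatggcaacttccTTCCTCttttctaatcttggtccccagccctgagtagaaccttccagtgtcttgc
TTCNNNGAA lies at -172 to -164 in Chil3 and at -109 to -101 in Fcgr1, counted from the start. It was found in 2 of the 7 genes with a promoter window and in 7.02% of all 32851 windows of this length. GAGGAA was found on either strand in 23.3% of all windows. Among the 7 genes it was present in Fcgr1, Cd68 and Mrc1. Both strands were searched, also for the STAT motif with a spacer longer by 1 base (5.85% of all windows), the core of the interferon-stimulated response element (2.98%), TTGCNNAA, a C/EBP motif (9.56%), and TATAAA, the TATA box (12.4%), none of which matched in the Chil3 or Fcgr1 window. No matches overlapped each other in these windows, and a match of letters does not show that a factor binds.

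Chil3 (chromosome 3, 106147554-106167564, mm10 and GENCODE release M21, minus strand) was at 9.04 in PBS 2 and 0 in PBS 3. It was at 412, 299 and 453 in Bleomycin 2, 3 and 4, and at 599, 275 and 685 in Celastrol 2, 3 and 5. The transcript was nearly absent from PBS skin, at an estimated 13 and 0 reads, and every bleomycin and celastrol library lay above both PBS libraries. The log2 change was 6.92 ± 0.83 (SE; limma adjusted p = 0.00854) in bleomycin against PBS, with 3 libraries against 2. It was 7.26 ± 0.83 (limma adjusted p = 0.00483) in celastrol against PBS. Since PBS 3 had no reads, the size of these changes depends on the pseudocount: with a pseudocount of 10 they were 4.83 and 5.16. They were 5.26 and 5.59 without PBS 3, and 8.58 and 8.92 without PBS 2. The bleomycin call was lost without Bleomycin 4 (limma adjusted p = 0.0564), without the 3 shallowest libraries (0.114), with only the 2 groups in the fit (0.0524), with the replicate number as a block (log2 change 6.80, 0.0687) and with no mean-variance trend (0.121). The celastrol call was lost without the 3 shallowest libraries (0.108) and with no trend (0.0846). Celastrol and bleomycin libraries overlapped, with a difference of 0.34 and a 95% interval of -1.31 to 1.99. Of the 50-base stretches in Chil3 transcripts, 26.9% also occur in another gene, chiefly Chil4 (16.9%) and Gm6522 (13.3%), so reads could be shared between them.

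None of the 4 other chitinase-family genes in the table passed the test in either comparison with PBS. Chil1, a chitinase-like glycoprotein made by macrophages and other cells, was at 43.8 and 0 in PBS, at 79.9, 914 and 228 in bleomycin and at 550, 432 and 524 in celastrol. All treated libraries were above PBS, with a wide spread among the bleomycin libraries, and the log2 changes were 5.26 ± 1.35 (limma adjusted p = 0.154) and 6.22 ± 1.35 (limma adjusted p = 0.0571). Chil4, the closest relative of Chil3, reached at most 41.8 in any library and was at 0 in both PBS libraries. Chit1, the active chitinase chitotriosidase, had log2 changes of -0.089 and 0.11, and Ctbs, a lysosomal chitobiase, of 0.012 and 0.13. With limma, 1 of these 4 genes, Chil1, had an unadjusted p under 0.05 in each comparison with PBS. So did 1582 of all 23185 genes tested in bleomycin and 2791 in celastrol.

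Fcgr1 (chromosome 3, 96282909-96293969, minus strand) was at 111 in PBS 2 and 9.93 in PBS 3. It was at 508, 600 and 636 in the bleomycin libraries and at 632, 516 and 788 in the celastrol libraries. The PBS libraries differed widely from each other, and both lay below every treated library. The log2 change was 4.05 ± 0.73 (limma adjusted p = 0.0366) in bleomycin and 4.18 ± 0.73 (limma adjusted p = 0.0241) in celastrol, each against PBS. The size rested on PBS 3, which held an estimated 9 reads: the changes were 2.37 and 2.50 without it, and 5.73 and 5.86 without PBS 2. The bleomycin call was lost without PBS 3 (limma adjusted p = 0.0588), Bleomycin 3 (0.132), Bleomycin 4 (0.184), Celastrol 2 (0.0634), Celastrol 3 (0.0576) or Celastrol 5 (0.0921), without the 3 shallowest libraries (0.335), with only the 2 groups (0.142; 0.0904 for celastrol), with the replicate block (log2 change 3.98, 0.230) and with no trend (0.303). The celastrol call was lost without Celastrol 2 (0.0731) or Celastrol 5 (0.112), without the 3 shallowest libraries (0.268), with the block (log2 change 4.03, 0.152) and with no trend (0.168). Celastrol differed from bleomycin by 0.14, with a 95% interval of -1.31 to 1.58.

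Of the 5 other receptors for IgG and their signalling chain that were measured, none passed in either comparison with PBS. In bleomycin against PBS, 3 of them had an unadjusted p under 0.05 in the limma fit, and in celastrol 1 did. That level was reached by 1582 of all 23185 genes tested in bleomycin and by 2791 in celastrol. Fcgr4, an activating receptor of monocytes and neutrophils, was at 23.7 and 11.0 in PBS, at 84.7, 91.5 and 154 in bleomycin and at 113, 15.2 and 194 in celastrol. The bleomycin libraries lay above PBS while Celastrol 3 fell among the PBS values, and the log2 changes were 2.64 ± 0.99 (limma adjusted p = 0.532) and 2.05 ± 0.99 (0.456). Fcgr2b, the inhibitory receptor, showed 0.63 ± 0.22 (limma adjusted p = 0.454) and 0.65 ± 0.22 (0.251), with every treated library above PBS. Fcgr3, another activating receptor, showed 0.49 and 0.57, and Fcer1g, the chain through which activating receptors signal, showed 0.88 and 0.52. Fcgrt, the neonatal receptor that recycles IgG, lay below PBS in every bleomycin and celastrol library, with log2 changes of -0.79 (limma adjusted p = 0.587) and -0.45 (0.623).

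**Figure D2:**
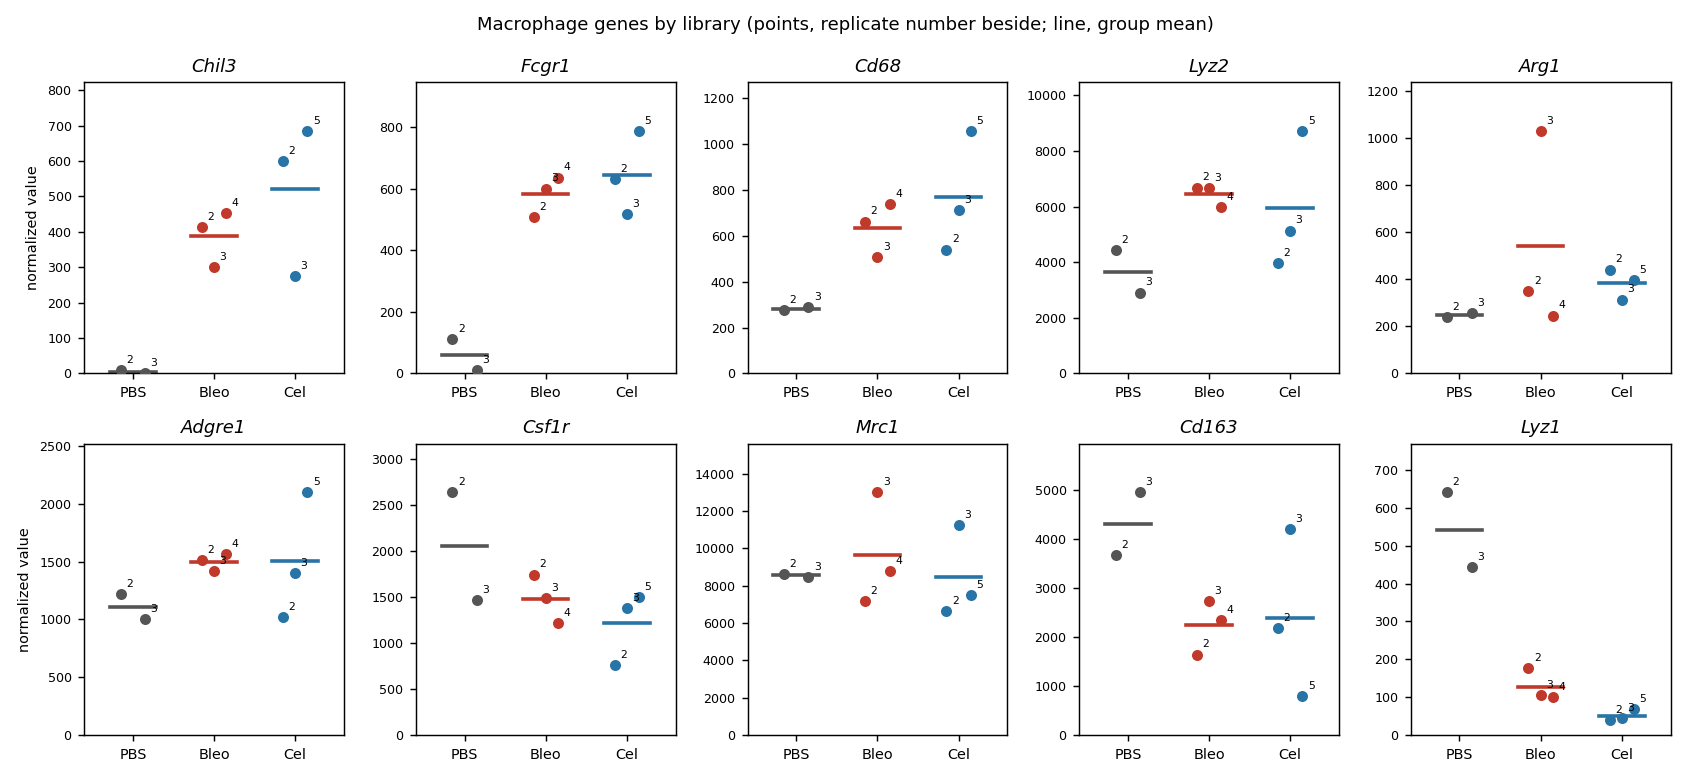
Deposited normalized value (linear axes from 0, 1 panel per gene with its own scale) of each of the 10 genes in each library; points are libraries with their replicate number, and lines are group means. Chil3 and Fcgr1 are low in both PBS libraries and high in all treated ones, Lyz1 runs the other way, and Mrc1 and Csf1r overlap between all groups.

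Among the genes that identify macrophages, Cd68 (chromosome 11, 69664213-69666153, minus strand) was at 277 and 289 in PBS, at 662, 507 and 737 in bleomycin and at 540, 714 and 1058 in celastrol. Every treated library lay above both PBS libraries, which were close together. The log2 change was 1.15 ± 0.31 (95% interval 0.46 to 1.83; limma adjusted p = 0.182) in bleomycin and 1.39 ± 0.31 (0.70 to 2.07; limma adjusted p = 0.0625) in celastrol, so that neither passed. With weights estimated per library both passed, at 1.32 (limma adjusted p = 0.0132) and 1.54 (0.0309). Celastrol differed from bleomycin by 0.24, with an interval of -0.37 to 0.85.

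Adgre1 (chromosome 17, 57358691-57483527, plus strand) was at 1217 and 1001 in PBS, at 1512, 1418 and 1570 in bleomycin and at 1021, 1399 and 2103 in celastrol. The bleomycin libraries lay above PBS and close together, while the celastrol libraries spanned from within the PBS range to the highest value of all. The log2 changes against PBS were 0.44 (95% interval -0.16 to 1.04) and 0.39 (-0.22 to 0.99), neither past the threshold, and celastrol lay -0.055 (-0.59 to 0.48) from bleomycin. Csf1r (chromosome 18, 61100598-61132149, plus strand) was at 2637 and 1463 in PBS, at 1742, 1486 and 1215 in bleomycin and at 760, 1378 and 1501 in celastrol. PBS 2 held the highest value and Celastrol 2 the lowest, and the groups overlapped. Its log2 changes were -0.42 (interval -1.16 to 0.31) in bleomycin and -0.76 (-1.49 to -0.020; limma adjusted p = 0.399) in celastrol, and -0.33 (-0.99 to 0.32) between them. Csf1r overlaps 873 bases of Hmgxb3 on the opposite strand, and whether counting used strand is not given in the sources used here.

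The ligands of Csf1r were measured beside it, with the related growth factor receptors. Csf1, the main macrophage growth factor, was at 1375 and 1183 in PBS, at 1268, 880 and 906 in bleomycin and at 929, 793 and 710 in celastrol. All celastrol libraries were below PBS, and the log2 changes were -0.35 ± 0.23 in bleomycin and -0.66 ± 0.23 (limma adjusted p = 0.264) in celastrol. Il34, the ligand made by keratinocytes, showed -0.060 and -0.48, with overlapping groups. Csf3r, the granulocyte growth factor receptor, showed 2.03 ± 0.80 (limma adjusted p = 0.587) and 1.56 ± 0.80 (0.490). Csf2ra and Csf2rb, the receptor chains for GM-CSF, and the related gene Csf2rb2 lay between -0.24 and 0.12 in both comparisons. Csf2, the gene of GM-CSF itself, was at most 15.2 in any library. None of these 7 genes passed, and 1 in each comparison had an unadjusted p under 0.05 in the limma fit, Csf3r in bleomycin and Csf1 in celastrol. Among all 23185 genes tested, 1582 and 2791 had a p at that level.

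Of the receptors of resident and scavenging macrophages, Mrc1 (chromosome 2, 14229392-14332057, plus strand) was at 8621 and 8467 in PBS, at 7182, 13000 and 8769 in bleomycin and at 6626, 11220 and 7495 in celastrol. Treated libraries lay on both sides of the PBS pair, with Bleomycin 3 and Celastrol 3 highest. The log2 changes were 0.13 (95% interval -0.47 to 0.73) and -0.054 (-0.66 to 0.55) against PBS, and -0.19 (-0.72 to 0.35) for celastrol against bleomycin. Cd163 (chromosome 6, 124304656-124330527, plus strand) was at 3665 and 4945 in PBS, at 1635, 2724 and 2340 in bleomycin and at 2183, 4196 and 790.5 in celastrol. All bleomycin libraries were below PBS, whereas Celastrol 3 fell between the PBS values and Celastrol 5 was the lowest of all. Its log2 changes were -0.96 ± 0.53 (interval -2.14 to 0.21; limma adjusted p = 0.946) and -1.14 ± 0.53 (-2.31 to 0.039; limma adjusted p = 0.436), and -0.17 (-1.23 to 0.88) for celastrol against bleomycin. Neither gene passed in any comparison.

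Set against Cd68 in the same library, these receptors stood lower in treated skin. For Mrc1, whose own log2 differences were 0.13 and -0.054, and for Adgre1, at 0.44 and 0.39, the lower ratio went with the higher Cd68 values. Cd163 was 13.2 and 17.1 times the Cd68 value in PBS, 2.47, 5.37 and 3.17 times in bleomycin and 4.04, 5.88 and 0.747 times in celastrol. Mrc1 was 31.1 and 29.3 times Cd68 in PBS, 10.8, 25.6 and 11.9 times in bleomycin and 12.3, 15.7 and 7.08 times in celastrol. Both PBS libraries were above all treated libraries in each ratio, with Bleomycin 3 closest to PBS for Mrc1. Csf1r over Cd68 was 9.53 and 5.06 in PBS and at most 2.93 in the treated libraries, and Adgre1 over Cd68 was 4.40 and 3.46 in PBS and at most 2.80. Fcgr1 over Cd68 ran the other way, at 0.402 and 0.0344 in PBS and 0.723 to 1.18 in the treated libraries. Lyz2 over Cd68 (10.1 to 15.98 in PBS and 7.19 to 13.2 in the treated libraries) and Arg1 over Cd68 (0.869 to 0.882 and 0.334 to 2.03) overlapped between PBS and treated libraries. These ratios are between genes of different length, so only their differences between libraries can be read, and they describe the libraries with no test.

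The genes were also ordered by level per kilobase of exon, with every value the mean normalized value per kilobase. In PBS skin the order was Lyz2 (2784), Mrc1 (1341), Cd163 (788), Lyz1 (430), Csf1r (355), Adgre1 (343), Cd68 (225), Arg1 (111), Fcgr1 (23.4) and Chil3 (2.77). Lyz1, Csf1r and Adgre1 overlapped with their neighbours there, as did Fcgr1 and Chil3. In bleomycin skin Lyz2 (4896 ± 304, SD, n = 3) and Mrc1 (1515 ± 473) again led, each separate from the next. Cd68 (506), Adgre1 (463), Cd163 (409), Csf1r (257), Arg1 (244), Chil3 (238) and Fcgr1 (225) followed with overlapping neighbours, and Lyz1 (101) was last. In celastrol skin Chil3 (319 ± 132) and Fcgr1 (249 ± 52.6) stood sixth and seventh, overlapping with Cd163 above and Csf1r below, and Lyz1 (40.0 ± 11.8) was again last and separate.

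Lyz1 and Lyz2 lie next to each other on chromosome 10 (117287797-117292868 and 117277331-117282321, minus strand), with 5475 bases between them. Lyz1 fell in celastrol against PBS while Lyz2 passed in no comparison. The stretch before each start is therefore shown side by side, from 140 to 51 bases before the RefSeq start (GRCm38.p6, chr10:117292919-117293008 for Lyz1 and chr10:117282323-117282412 for Lyz2). Capitals mark the bases that differ.
Lyz1: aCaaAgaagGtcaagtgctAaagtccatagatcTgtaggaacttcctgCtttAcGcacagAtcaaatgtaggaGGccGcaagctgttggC
Lyz2: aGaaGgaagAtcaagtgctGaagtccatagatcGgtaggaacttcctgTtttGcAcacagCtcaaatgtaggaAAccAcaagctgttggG
The same base stood at 77 of 90 positions (85.6%) and a different one at 13. The 6 motifs searched in the promoter windows had no match within these 90 bases of either gene, which says only that those letters are absent from this stretch. Farther from the start, the 250-base window of Lyz1 held TTGCNNAA, the C/EBP motif, on the opposite strand at -209 to -202. That motif was found in 9.56% of all windows, and the Lyz2 window matched none of the 6.

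Lyz2 was at 4422 and 2907 in PBS, at 6678, 6673 and 5981 in bleomycin and at 3964, 5131 and 8720 in celastrol. The bleomycin libraries lay above PBS, while Celastrol 2 fell between the PBS values. The log2 changes were 0.84 ± 0.30 (95% interval 0.19 to 1.50; limma adjusted p = 0.450) and 0.65 ± 0.30 (-0.0086 to 1.30; limma adjusted p = 0.425), and neither passed. Celastrol differed from bleomycin by -0.20 (-0.78 to 0.39). Lyz1 was at 642 and 445 in PBS, at 177, 105 and 100.5 in bleomycin and at 39.1, 45.0 and 67.2 in celastrol. The groups did not overlap in any comparison, with PBS highest, bleomycin between and celastrol lowest. Lyz1 fell by 3.42 ± 0.48 on the log2 scale (limma adjusted p = 0.0106) in celastrol against PBS. In bleomycin against PBS the log2 difference was -2.11 ± 0.48 (interval -3.18 to -1.04; limma adjusted p = 0.101), which passed with library weights at -2.31 (0.00753). Celastrol lay -1.31 ± 0.43 from bleomycin, with an interval of -2.26 to -0.35 and an unadjusted p of 0.0122, but not past the threshold (limma adjusted p = 0.975). The celastrol call against PBS was lost without PBS 2 (limma adjusted p = 0.115), PBS 3 (0.0785) or the 3 shallowest libraries (0.116), with the replicate block (log2 change -3.64, 0.0857) and with no trend (0.0609).

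As a share of the summed lysozyme value, Lyz1 made up 12.7% and 13.3% in PBS, 2.58%, 1.54% and 1.65% in bleomycin and 0.977%, 0.870% and 0.765% in celastrol. The PBS libraries agreed closely with each other, and the 3 groups occupied separate ranges in the order PBS, bleomycin, celastrol. The sum of both genes was 5064 and 3352 in PBS, 6855, 6777 and 6082 in bleomycin and 4003, 5176 and 8787 in celastrol. Of the 50-base stretches of the Lyz1 transcript, 16.1% are also in Lyz2, and 15.4% of those of Lyz2 are in Lyz1. How the authors assigned reads that match both genes is not given in the sources used here. Estimated reads of Lyz1 were not whole numbers (23.8, 26.7 and 94.5 in the celastrol libraries), so the values of both genes are uncertain where reads could be split between them.

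**Figure D3:**
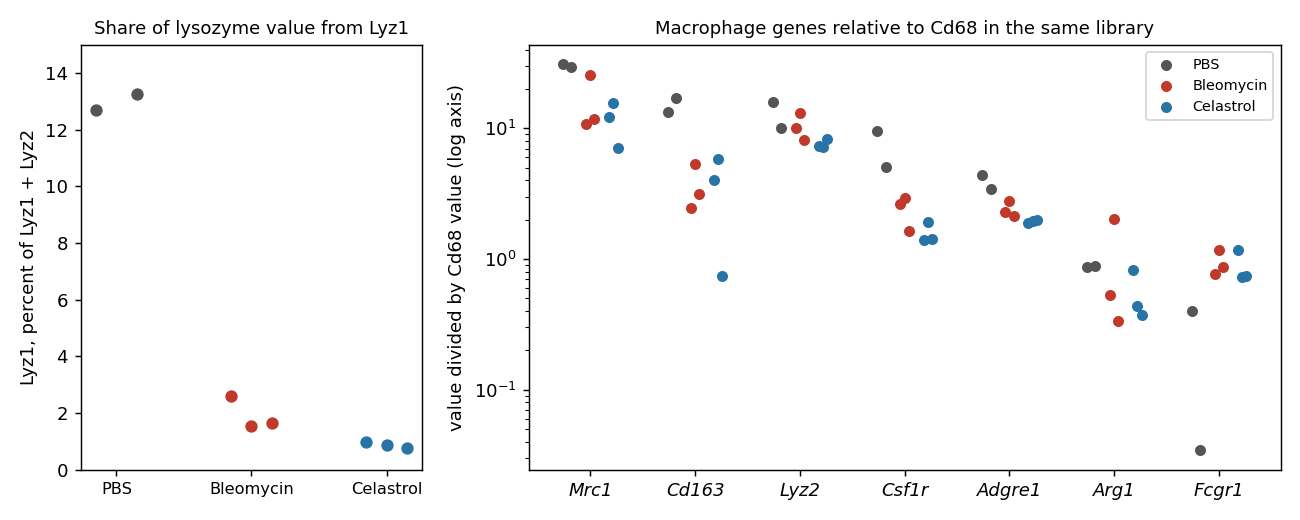
Left, Lyz1 as a percent of the summed normalized value of Lyz1 and Lyz2 in each library; right, the value of 7 of the genes divided by that of Cd68 in the same library, on a log axis, with points for libraries. The Lyz1 share drops from 12.7% and 13.3% in PBS to at most 2.58% in every treated library, and Mrc1, Cd163, Csf1r and Adgre1 lie lower relative to Cd68 in treated skin while Fcgr1 lies higher.

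Arg1 (chromosome 10, 24915221-24927484, minus strand), which splits arginine into ornithine and urea, was at 241 and 255 in PBS, at 351, 1031 and 246 in bleomycin and at 442, 314 and 396 in celastrol. Bleomycin 3 stood far above all other libraries and Bleomycin 4 fell between the PBS values, while the celastrol libraries were all above PBS. The log2 changes were 0.85 ± 0.50 (95% interval -0.27 to 1.96; limma adjusted p = 0.989) and 0.62 ± 0.50 (-0.50 to 1.73; limma adjusted p = 0.692), and -0.23 (-1.23 to 0.76) between celastrol and bleomycin. The bleomycin difference was 0.25 without Bleomycin 3. None of 13 other measured genes of arginine metabolism passed against PBS. The smallest p belonged to Ass1, which makes argininosuccinate (1.79 ± 0.62, limma adjusted p = 0.431), in bleomycin and to Nos3, the endothelial nitric oxide synthase (-2.34 ± 1.21, limma adjusted p = 0.494), in celastrol. Of these 13, 1 had an unadjusted p under 0.05 in bleomycin and 0 in celastrol, beside 1582 and 2791 of all 23185 genes tested.

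Other genes of the macrophage programme were counted from lists. Of all genes tested, 0.453% were called higher and 0.224% lower in bleomycin against PBS, and 0.824% and 0.543% in celastrol. Of 30 further macrophage identity genes, 2 rose and 0 fell in each comparison with PBS, with list medians of 0.32 and 0.27. Libraries of the groups did not overlap in 9 higher and 5 lower of the 30 in bleomycin, and in 10 and 4 in celastrol. Over all genes those shares were 12.0% and 11.6%, and 13.2% and 13.7%. Among those below PBS in both were Timd4 (-3.67 and -4.71), Cd209f (-1.1 and -3.1) and Cd209d (-0.94 and -2.41), none of them called. Mpeg1, a pore-forming protein of macrophages, was at 2038 and 1616 in PBS, at 4312, 4360 and 5373 in bleomycin and at 3496, 3630 and 4991 in celastrol, with log2 changes of 1.36 ± 0.21 (limma adjusted p = 0.0209) and 1.14 ± 0.21 (0.0278). Ctss, the lysosomal protease cathepsin S, was at 2875 and 2686 in PBS and at 5927 to 12540 in the treated libraries, with changes of 1.73 ± 0.30 (limma adjusted p = 0.0310) and 1.67 ± 0.30 (0.0254). Both of these called genes were higher in every treated library than in either PBS library. In bleomycin the count was 1 without PBS 2 and 0 without PBS 3, Bleomycin 3, Bleomycin 4 or the 3 shallowest libraries. In celastrol it was 1 without Bleomycin 4 or Celastrol 2 and 0 without PBS 2, PBS 3, Celastrol 5 or the 3 shallowest libraries.

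Of 13 genes of monocytes and of the chemokines that attract them, 6 rose and 0 fell in bleomycin against PBS. In celastrol 8 rose and 0 fell, and the medians were 2.7 and 2.87. Over all genes tested, 0.453% and 0.824% were called higher, and the medians were -0.00072 and -0.07. Ms4a4c, a membrane protein of monocytes, was at 138 and 87.2 in PBS, at 1031, 1446 and 2008 in bleomycin and at 1107, 1360 and 1428 in celastrol. Every treated library lay above both PBS libraries, and the log2 changes were 3.71 ± 0.31 (limma adjusted p = 0.00186) and 3.55 ± 0.31 (0.00275). Ly6c2, a surface marker of inflammatory monocytes, rose by 3.28 ± 0.49 (limma adjusted p = 0.0206) and 3.14 ± 0.49 (0.0156). Clec4e, the receptor Mincle, rose by 4.79 and 4.20. The chemokine Ccl2, a main attractant of monocytes, rose by 2.72 and 3.08. Its relative Ccl12 rose by 5.34 and 4.84, from 2.78 and 0 in PBS. In celastrol, Ccl7 and Plac8 also passed, at 2.87 ± 0.55 (limma adjusted p = 0.0345) and 2.06 ± 0.43 (0.0482). Their differences in bleomycin were nearly as large, at 2.7 (limma adjusted p = 0.0627) and 2.10 (0.0649). In bleomycin the count was 4 without PBS 2, 3 without Celastrol 5, 1 without PBS 3, Bleomycin 3 or Bleomycin 4, and 0 without the 3 shallowest libraries. In celastrol it was 3 without PBS 2, 4 without Bleomycin 4, 1 without PBS 3 or Celastrol 5, and 0 without the 3 shallowest libraries.

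Genes of classical activation, driven by interferon and microbial signals, gave 2 that rose of 18 tested in bleomycin and 3 in celastrol. The list medians were 0.88 and 0.74. Among all genes tested, 0.453% and 0.824% were called higher, with medians of -0.00072 and -0.07. Cd80, a co-stimulatory ligand, rose by 2.27 ± 0.39 (limma adjusted p = 0.0317) and 2.18 ± 0.39 (0.0263). Cxcl10, an interferon-induced chemokine, rose by 3.22 ± 0.59 (limma adjusted p = 0.0278) in celastrol, and its difference in bleomycin was 2.93 ± 0.59 (limma adjusted p = 0.0610), with every treated library above PBS. Celastrol lay 0.30 from bleomycin (limma adjusted p = 0.988). In bleomycin the count was 0 without PBS 2, PBS 3, Bleomycin 3, Bleomycin 4 or the 3 shallowest libraries and 1 without Celastrol 5. In celastrol it was 0 without PBS 3, Celastrol 5 or the 3 shallowest libraries and 1 without PBS 2, Bleomycin 4 or Celastrol 3.

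Genes of alternative activation, the interleukin-4 programme to which Chil3, Arg1 and Mrc1 are usually assigned, gave 0 calls among 19 tested in each comparison with PBS, where limma gave an unadjusted p under 0.05 for 4 in bleomycin and 5 in celastrol. Over all 23185 genes tested, 1582 in bleomycin and 2791 in celastrol had a p at that level. The medians of the list were 0.064 and -0.029. Libraries of the groups did not overlap in 4 higher and 5 lower of these genes in bleomycin, and in 2 and 5 in celastrol. Over all genes those shares were 12.0% and 11.6%, and 13.2% and 13.7%. Trem2, a lipid receptor of macrophages, was at 36.3 and 28.7 in PBS and at 103 to 163 in the treated libraries, with 2.10 ± 0.50 (limma adjusted p = 0.110) in bleomycin. Mgl2, a lectin of dermal macrophages and dendritic cells, was at 2307 and 1589 in PBS, at 800, 1150 and 733 in bleomycin and at 158, 628 and 657.5 in celastrol. Its celastrol change was -2.25 ± 0.53 (limma adjusted p = 0.0778), and every treated library was below PBS. Retnla, of the same list, was at 1411 and 1086 in PBS, 113, 124 and 111 in bleomycin and 0, 59.05 and 149 in celastrol. Its log2 changes ran opposite to those of Chil3, at -3.41 ± 1.59 (limma adjusted p = 0.770) and -5.90 ± 1.59 (0.130), and neither passed. Of 20 genes of scavenging and the lysosome and 10 of haemoglobin and iron handling, 0 passed in either comparison, where 3 and 2 in bleomycin and 5 and 2 in celastrol had an unadjusted p under 0.05, beside the same 1582 and 2791 over all genes. The smallest p belonged to Msr1, a scavenger receptor (1.69 ± 0.43, limma adjusted p = 0.143; 1.45 ± 0.43, 0.171), and to Hp, which binds free haemoglobin (1.82 ± 0.51, limma adjusted p = 0.203; 1.61 ± 0.51, 0.202).

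**Figure D4:**
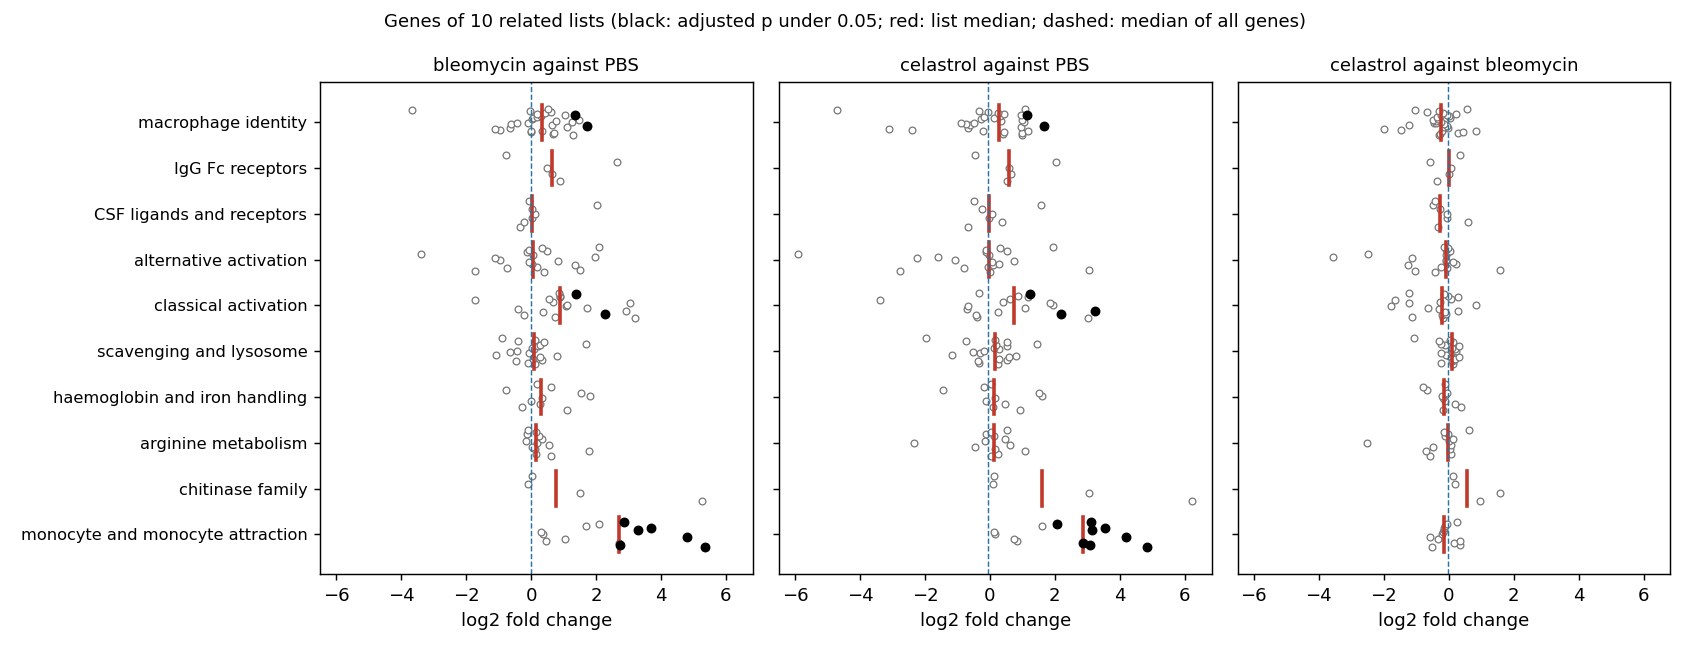
Log2 fold change of each tested gene of 10 lists of macrophage-related genes in each comparison; filled black points passed the test, red bars are list medians and the dashed line is the median of all genes. The monocyte list lies to the right in both comparisons with PBS, with medians of 2.7 and 2.87, and no gene passed in celastrol against bleomycin.

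In celastrol against bleomycin, limma called 0 genes in each of these 10 lists, and at most 2 genes of a list had an unadjusted p under 0.05. Those at that level were Lyz1 among the 10 genes described here, Cd209f (-2.01) among macrophage identity genes, Nos3 (-2.51) in arginine metabolism and 2 of alternative activation, led by Pdcd1lg2 (-3.57), a ligand of PD-1. The limma adjusted p was 0.975 for each of those named. Over all 23185 genes tested, 898 had an unadjusted p under 0.05 in that comparison.

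Markers of other cell types were summed in each library, and the sums of some lists differed between the groups. Of 13 neutrophil markers, 8 were measured, and their summed value was 1232 to 1529 in PBS, 1557 to 6992 in bleomycin and 3020 to 3853 in celastrol. Neutrophils also make Lyz2 and Chil3 in the mouse. S100a8, an abundant neutrophil protein, was at 0.695 and 0 in PBS, at 38.6, 1610 and 80.8 in bleomycin and at 233, 351 and 445 in celastrol. Its lowest values were those of the PBS libraries, as for Chil3. Among the bleomycin libraries, Bleomycin 3 was highest for S100a8 (1610) and lowest for Chil3 (299). Over all genes tested, limma called 0.453% higher and 0.224% lower in bleomycin against PBS, and 0.824% and 0.543% in celastrol. Limma called 2 of the 8 neutrophil markers higher in bleomycin against PBS and 3 in celastrol, and 0 lower. Cxcr2, Mpo and Mmp9 of that list overlapped with PBS in both. Their log2 changes were 0.44 and 0.36, 0.11 and -0.00051, and -0.21 and -0.17. All 8 fibroblast markers were measured, and their sum was 346800 to 757200 in PBS, 30020 to 102700 in bleomycin and 27990 to 73180 in celastrol. Of these, limma called 5 lower in bleomycin against PBS and 6 in celastrol. The sum of 8 skeletal muscle markers was 77070 to 90190 in PBS, 97110 to 146600 in bleomycin and 182100 to 236900 in celastrol. Here 1 was called higher in bleomycin against PBS and 4 in celastrol. Keratinocyte markers (8 of 8) summed to 120400 to 361800, 148000 to 360900 and 203500 to 299300 in the same order, with overlap between all groups. Among them only Flg was called, higher in both comparisons with PBS, at 1.81 (limma adjusted p = 0.0144) and 2.4 (0.00379). Endothelial markers (6 of 6) summed to 4657 to 6206, 5283 to 7227 and 4625 to 5770, again with overlap between all groups. Of these only Tek was called, lower in celastrol against PBS at -1.27 (limma adjusted p = 0.0285), and at -0.91 (0.148) in bleomycin. The change was positive for 4 of the 6 in bleomycin and for 2 in celastrol. The sums of T and NK cell (10 of 10 measured), B cell (3 of 5) and adipocyte (5 of 5) markers also overlapped between all groups, and limma called 0 of their genes in any comparison. Those with an unadjusted p under 0.05 were 1 T and NK cell gene in bleomycin against PBS and 1 adipocyte gene in celastrol against bleomycin. Over all 23185 genes tested, 1582 and 898 had a p at that level in those comparisons. No measured marker of these lists was at 0 in every library of a group. The part of cell composition in the changes of the macrophage genes was not tested.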

How the data were processed

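RNA from 8 mouse skin libraries had been sequenced with a total RNA kit, per the labels' protocols. The deposited values are a linear signal per gene, estimated gene counts that the authors scaled by DESeq2 poscounts size factors, as the deposited file's name and header show. Partek 10.0.22, STAR 2.7.3a and the mm10 build were used by the authors, per the submitters' processing notes. The settings for counting, strand and shared reads are not given in the sources used here. The table held 0 columns of other samples. Whole reads could not be recovered, so no count test was run. Depth was estimated from the value of 1 read in each library, and at that depth a value at 0 allows up to 3 reads, which covers counting error only.

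Log2(value + 1) was tested with limma 3.58.1 under R 4.3.3, with moderated variances that follow the mean. All 8 libraries were in 1 fit with no covariate. Genes that reached a value of 10 in fewer than 2 libraries were left out. Two-sided p-values had Benjamini-Hochberg adjustment over 23185 genes. The procedure was tested on simulated data. The 10 genes, the lists and the tests were chosen with earlier results of these data known. All 10 genes are named with each library. Of the related lists, the text names up to 4 genes past the threshold with the smallest p or, with none, the gene with the smallest p, and every gene of the chitinase, Fc receptor and growth factor receptor lists. Ccl2, Ccl7, Plac8, Retnla, Timd4, Cd209f, Cd209d, Cxcr2, Mpo and Mmp9 were chosen after their values were seen. Positions and exon lengths come from GENCODE release M21, in which the positions of all 10 genes matched the table. Promoters are RefSeq sequence of GRCm38.p6, given here for 7 of the 10. Alternatives changed the pseudocount, filter, scaling, libraries, weights, block and trend. Counts of the monocyte, identity and classical lists without single libraries were added after seeing the data. Some genes of the monocyte and classical activation lists are counted but not reported here by name.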

Additional observations from a re-analysis of the deposited data

How the results depend on the processing

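Pseudocounts of 0.5 and 10, either filter and both rescalings kept the direction of each of the 10 genes in every comparison and the calls of Chil3, Fcgr1 and Lyz1. Rescaling libraries to the same sum changed the split of celastrol calls against PBS from 191 higher and 126 lower to 139 and 138, and moved the median of all genes by -0.105, and by -0.121 in celastrol against bleomycin. In bleomycin against PBS, 157 genes and 2 of the 10 were called. These counts were 46 (20 higher, 26 lower) and 0 with only the 2 groups in the fit, 711 and 4 with library weights, 7 and 0 with no trend, 0 and 0 without the 3 shallowest libraries, and 16 to 229 and 0 to 2 when 1 library was left out. In celastrol against PBS, 317 and 3 were called, with 159 in the fit of 2 groups, 19 and 0 with no trend, 4 and 0 without the shallowest libraries, and 38 to 418 and 2 to 3 when 1 library was left out. In celastrol against bleomycin, 0 genes were called, 2 with no trend and 0 to 1 when 1 library was left out. Where a call was left with 1 PBS library, that library was assumed to vary like the other groups.

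With the replicate number as a block, 17 genes and 0 of the 10 were called in bleomycin against PBS, and 41 and 1 in celastrol against PBS. Only numbers 2 and 3 are shared, so Bleomycin 4 and Celastrol 5 carry no weight in that fit. Same-numbered libraries correlated in their deviations at 0.203 and 0.0964 (PBS and bleomycin), 0.00725 and 0.111 (PBS and celastrol) and -0.00485 and 0.0477 (bleomycin and celastrol). Differently numbered libraries ran from -0.203 to 0.123. The deviations of the 2 PBS libraries mirror each other, so these values cannot show whether the numbers are pairs. The labels state no pairing, and the main fit used none.

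Directions that changed belonged to differences that were not called, and the cause was not tested. When 1 library was left out, the bleomycin difference from PBS ran from -0.85 to 0.0023 for Csf1r and from -0.11 to 0.32 for Mrc1, and the celastrol difference from -0.28 to 0.10 for Mrc1. Celastrol against bleomycin ran from -0.33 to 0.19 for Adgre1, -0.66 to 0.37 for Arg1, -0.73 to 0.47 for Cd163, -0.017 to 0.47 for Cd68, -0.019 to 0.29 for Fcgr1, -0.51 to 0.056 for Lyz2 and -0.41 to 0.052 for Mrc1. Library weights gave 0.058 for Adgre1, 0.060 for Lyz2 and 0.38 for Arg1 there, and the block gave 0.52 for Cd163. Without the shallowest libraries it was 0.45 for Adgre1, 0.044 for Csf1r, 0.46 for Lyz2 and 0.43 for Arg1, and Mrc1 was -0.11 in bleomycin against PBS. The block gave 0.013 for Mrc1 in celastrol against PBS.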

Other observations

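Dendritic cell and mast cell genes were also listed, since dermal dendritic cells share several macrophage genes. Cd209a, a lectin of monocyte-derived and dermal dendritic cells, was at 683 and 540 in PBS, at 235, 259 and 177 in bleomycin and at 0, 243 and 125 in celastrol. Every treated library was below PBS, and the celastrol difference was -4.28 ± 1.77 on the log2 scale (limma adjusted p = 0.361), with Celastrol 2 listed at 0. Of 10 dendritic and Langerhans cell markers, 0 passed with limma in either comparison with PBS, and 0 in bleomycin and 1 in celastrol had an unadjusted p under 0.05. In bleomycin 3 of the 10 lay above PBS in every library and only 1, Cd209a (-1.46 ± 1.77), below. There 7 of the 10 changes were positive, with a median of 0.099. Batf3 led the list in bleomycin, at 2.50 ± 1.64, and was at most 24.6 in any library. In celastrol 0 of the 10 lay above PBS in every library and 3 below, 3 changes were positive and the median was -0.80. Hdc, the histamine-forming enzyme of mast cells, showed 2.59 ± 0.73 (limma adjusted p = 0.218) and 2.45 ± 0.73 (0.180), with all treated libraries above PBS. Of 9 mast cell markers, 0 passed with limma, and 1 in bleomycin and 5 in celastrol had an unadjusted p under 0.05. Of all 23185 genes tested, 1582 and 2791 had a p at that level. In celastrol 7 of the 9 lay above PBS in every library, beside 13.2% of all genes. In bleomycin 4 of the 9 did, beside 12.0%. Their sum was 5021 to 5726 in PBS, 5720 to 7857 in bleomycin and 7529 to 8092 in celastrol.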
